A study of Mus musculus with 3 samples.

Results

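The small heat shock proteins of muscle examined here were Hspb1, Hspb2, Hspb3, Hspb6, Hspb7, Hspb8 and Cryab. Their probes were taken as every non-control probe on the array whose RefSeq accession named 1 of these 7 genes. This gave 8 of the 55681 probes on the array and 7 of its 21613 named genes, with 2 probes for Cryab and 1 for each other gene. The RNA came from SOL, read here as the soleus, a slow hindlimb muscle. The donors were male C57BL/6 mice, 8 weeks old and kept on regular chow. The wildtype group (WT) was compared with mice of the genotype Mettl21cLacZ/LacZ (KO), in which both copies of Mettl21c carry LacZ. Each genotype had 3 biological replicates, and each of 3 arrays carried 1 WT sample in the dye Cy3 and 1 KO sample in the dye Cy5. The dyes were not exchanged, so that a probe's preference for a dye cannot be told apart from genotype. The allele is carried by every cell of the animal. The labels used here do not say whether the WT mice were littermates or whether 1 mouse gave each sample.

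Small heat shock proteins share a conserved alpha-crystallin domain and bind unfolding proteins without using ATP, which keeps them from aggregating until ATP-driven chaperones refold them or hand them to degradation. Striated muscle holds most members of the family, and several sit at the Z-disc, on desmin filaments or on titin, where contraction strains proteins. Mettl21c, the gene altered here, is a muscle-enriched relative of lysine methyltransferases that modify chaperones of the Hsp70 and valosin-containing protein classes.

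The library labels were first checked on the targeted gene. The 1 probe for Mettl21c had log2 ratios of -2.93, -1.96 and -2.46 on arrays 1 to 3, with a mean of -2.45 ± 0.48 (SD, n = 3; adjusted p = 0.0289 in limma). Throughout, a ratio is the log2 ratio of KO over WT within an array, after background correction and loess normalisation, and the SD is between arrays. Probes well above background made up 22.5% to 22.9% of the 59305 non-control spots in KO and 20.4% to 23.6% in WT, and no spot was saturated. Ratios of different arrays correlated across probes at 0.347, 0.210 and 0.335, a description over probes that share a slide design and are not independent replicates. Of the myofibre marker genes, 7 of 9 were well above background in all samples of both genotypes. The exceptions were Ckm and Myh7, which were not tested. The count needs a spot without an outlier flag on each array. With 3 arrays, precision is limited by the array count. In whole muscle, fewer cells of a type and less RNA per cell cannot be told apart.

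Transcripts of all 7 genes were well above background in both genotypes on all 3 arrays, at each of the 8 probes. Of these probes 7 could be tested. The second Cryab probe was not, since its spot on array 3 carried the scanner's outlier flag. No member passed the adjusted threshold of 0.05 (0 of 7 in limma), where 1 of 8391 tested probes did so over the whole array (0.0119%). At an unadjusted p under 0.05, Hspb2 and Cryab were higher in KO, against 5.6% of all tested probes, and Hspb7 was lower, against 8.02%. These 3 probes were also the members with a ratio of 1 sign on every array. That is 2 positive members beside 17.3% of all tested probes, and 1 negative member beside 18.6%. The median ratio of the 7 tested members was 0.05, beside -0.0033 for all tested probes, and was -0.36 when arrays were centred without loess. An exact sign-flip permutation test over 3 arrays cannot go below a two-sided p of 0.25, and that value was reached by Hspb2, Hspb7 and Cryab.

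**Figure D1:**
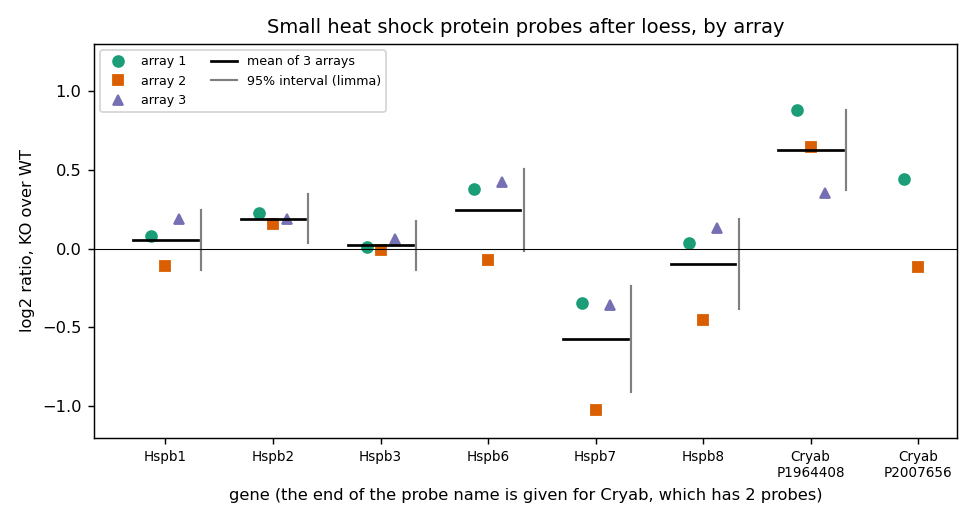
Log2 ratio of KO over WT (vertical axis) at the 8 probes of the 7 genes (horizontal axis), with 1 point per array, a bar at the mean of 3 arrays and a line for the 95% interval from limma. Hspb7 lies lowest on each array, at -0.35, -1.02 and -0.36. The second Cryab probe has values on arrays 1 and 2 only and so has no mean.

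Hspb7, the cardiovascular small heat shock protein of heart and skeletal muscle, which binds filamin C, had the lowest ratio of the members on each array. Its processed signal, the background-subtracted and dye-normalised intensity written by the scanner software, was 10337, 11561 and 14875 in the WT samples of arrays 1 to 3. In the KO samples of the same arrays it was 8408, 5295 and 10658. KO was below WT on each array, while the genotypes overlapped across arrays, since the KO sample of array 3 exceeded the WT sample of array 1. The log2 ratios were -0.35, -1.02 and -0.36, with a mean of -0.58 ± 0.39 (SD, n = 3), which is 1.49-fold lower in KO with a 95% interval of 1.18-fold to 1.88-fold in limma. The probe did not pass the adjusted threshold (unadjusted p = 0.00534, adjusted p = 0.170 in limma). It ranked 34th from the lowest of the 8391 tested probes. The ratio was lowest on array 2, and without that array the mean was -0.35 (adjusted p = 0.389 in limma, where 2 arrays remain). The lowest ratio among the other members was 0.01 on array 1, -0.45 on array 2 and 0.06 on array 3.

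The Hspb7 probe is printed at 10 spots on each array, which shows the spread between spots within an array, and not error from labelling or dye. After 1 spot with an outlier flag was left out on array 1 and 1 on array 3, all 9, 10 and 9 remaining spots had negative ratios. The spots ranged from -0.48 to -0.19 on array 1, from -1.19 to -0.83 on array 2 and from -0.57 to -0.20 on array 3. The SD between spots was 0.11, 0.11 and 0.13, so that array 2 differed from the other arrays by more than the spread between spots. Counting flagged spots too, the WT spots of array 1 read 9778 to 10692 and the KO spots 8088 to 9069. On array 2 the WT spots read 8251 to 12940 and the KO spots 3846 to 5883. On array 3 the WT spots read 13893 to 17439 and the KO spots 9468 to 12915. Thus WT and KO spots did not overlap within an array in the processed signals, a separation that depends on how the dyes were scaled. It was not counted for other probes and so is not shown to be particular to Hspb7. Spots of an array share 1 pair of samples and are not replicates of the genotype. Among the 145 tested probes printed at 10 spots, the median SD between spots was 0.09, 0.09 and 0.13 on the 3 arrays. None of these 145 probes had a mean ratio below that of Hspb7, while 36 of them, Hspb7 included, were negative on all arrays.

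**Figure D2:**
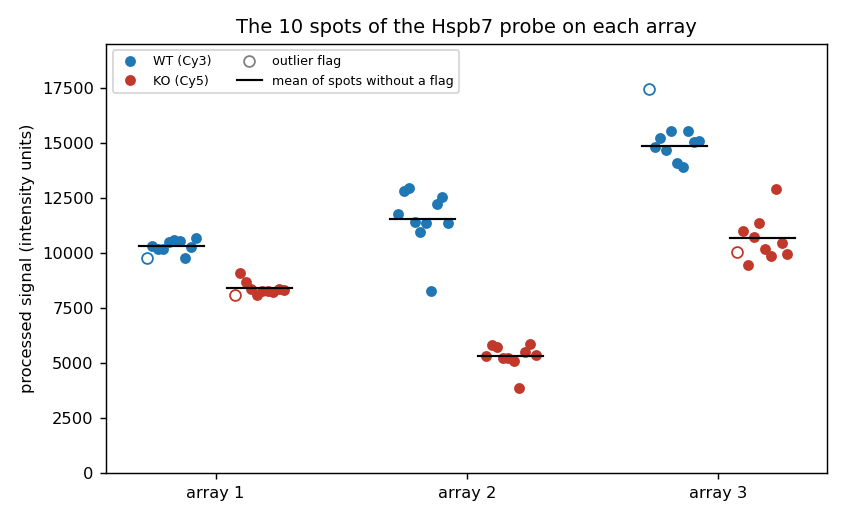
Processed signal in intensity units (vertical axis, from 0) of each of the 10 spots of the Hspb7 probe on arrays 1 to 3, for WT in Cy3 and KO in Cy5, with bars at the mean of spots without an outlier flag and open circles for spots with one. Within each array all KO spots lie below all WT spots, which was not counted for other probes, and the gap is widest on array 2.

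The regions before the transcription starts of these genes are shown because small heat shock genes are known targets of heat shock factors, which bind inverted repeats of the letters GAA. For Hspb2 and Cryab the set of windows used held none. Windows of 250 bases before the start were taken from RefSeq on build GRCm38.p6 for Hspb1, Hspb3, Hspb6 (2 windows), Hspb7 and Hspb8. They were searched on both strands for GAANNTTC and TTCNNGAA, both orders of an inverted repeat pair, and for TATAAA. The Hspb1 window lies at chr5:135887669-135887918 on the plus strand, the second Hspb6 window at chr7:30553051-30553300 on the plus strand and the Hspb7 window at chr4:141420529-141420778 on the plus strand. They are printed 5′ to 3′, with matches to these motifs in capitals.
Hspb1: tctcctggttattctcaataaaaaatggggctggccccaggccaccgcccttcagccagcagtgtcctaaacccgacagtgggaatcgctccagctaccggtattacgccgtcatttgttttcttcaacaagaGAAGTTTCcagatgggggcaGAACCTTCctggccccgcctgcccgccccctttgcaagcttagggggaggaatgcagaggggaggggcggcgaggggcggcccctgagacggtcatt
Hspb6, second window: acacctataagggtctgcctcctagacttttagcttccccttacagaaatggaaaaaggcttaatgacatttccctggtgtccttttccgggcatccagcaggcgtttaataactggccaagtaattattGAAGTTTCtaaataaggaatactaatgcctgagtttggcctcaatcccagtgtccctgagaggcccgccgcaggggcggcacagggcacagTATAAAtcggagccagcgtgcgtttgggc
Hspb7: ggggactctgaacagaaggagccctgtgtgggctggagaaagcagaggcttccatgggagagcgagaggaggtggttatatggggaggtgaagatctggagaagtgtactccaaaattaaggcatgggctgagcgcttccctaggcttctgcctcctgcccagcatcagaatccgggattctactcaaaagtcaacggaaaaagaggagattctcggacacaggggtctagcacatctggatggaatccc
The Hspb1 window holds 2 matches to GAANNTTC, starting at -117 and -97 from the transcription start. The second Hspb6 window holds 1 at -120 and a TATAAA at -29, while the first Hspb6 window holds no match to any of these motifs. The Hspb3 window, not printed, holds a GAANNTTC at -224 and a TATAAA at -11. No match to these motifs lies in the windows of Hspb7 and Hspb8. Among all 32851 such windows, 6.69% hold GAANNTTC, 7.17% hold TTCNNGAA and 12.4% hold TATAAA. A match describes letters only.

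Cryab encodes alpha-B crystallin, a chaperone of desmin and titin that is abundant in slow muscle. Its probes A_55_P1964408 and A_55_P2007656 gave unequal ratios. At A_55_P1964408 the processed signal was 128606, 233580 and 1614 in WT and 170523, 220528 and 1700 in KO on arrays 1 to 3. This probe was bright on arrays 1 and 2, where KO was above WT on array 1 and below it on array 2, and it was dim in both genotypes on array 3. After loess the ratios were 0.88, 0.65 and 0.35, with a mean of 0.63 ± 0.27 (SD, n = 3). That is 1.54-fold higher in KO, with a 95% interval of 1.29-fold to 1.84-fold in limma (unadjusted p = 8.1e-04, adjusted p = 0.0940). The mean was 0.13 from the processed signals, 0.30 with loess fitted on the tested probes and -0.032 when arrays were centred without loess. With trended and robust moderation this probe passed (adjusted p = 0.0407 in limma), as 1 of 80 probes called over the array.

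The spot of A_55_P1964408 on array 3 carried no outlier flag, yet its average log2 intensity was 6.99 there against 13.37 and 13.64 on arrays 1 and 2. Of the 8391 tested probes, 20 were more than 3 log2 units dimmer on array 3 than on both other arrays, and none was so on array 1 or array 2. Array 3 also had 1002 non-control spots with an outlier flag, against 536 and 572 on arrays 1 and 2. Without array 3 the mean ratio of this probe was 0.76 (adjusted p = 0.0871 in limma).

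At A_55_P2007656 the processed signal was 56436 in WT and 60131 in KO on array 1, and 102181 in WT and 68614 in KO on array 2. The spot on array 3, which carried the outlier flag, read 64259 in WT and 72855 in KO, as bright as on the other arrays. The ratios of the spots without a flag were 0.44 and -0.11, so that the sign differed between arrays. Their mean was 0.17, beside 0.76 at A_55_P1964408 on the same arrays, and was -0.24 beside 0.16 from the processed signals. When spots with a flag were kept, the ratios of A_55_P2007656 were 0.41, -0.13 and 0.19 on arrays 1 to 3, and their mean was 0.16 (adjusted p = 0.600 in limma).

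**Figure D3:**
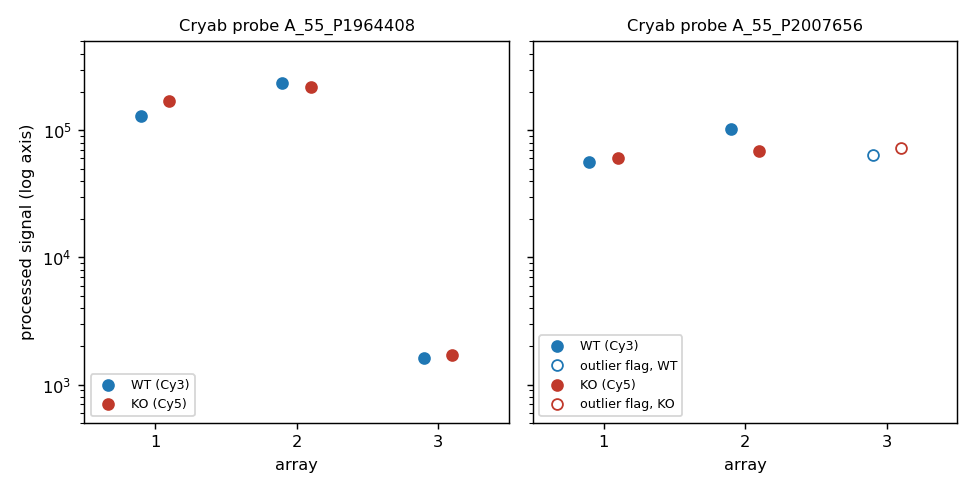
Processed signal on a log axis (vertical) of the Cryab probes A_55_P1964408 (left) and A_55_P2007656 (right) on arrays 1 to 3, for WT in Cy3 and KO in Cy5, with open circles for the spot with an outlier flag. The left probe reads 1614 in WT and 1700 in KO on array 3, far below its values on arrays 1 and 2, while the right probe keeps its level there.

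Hspb2, also named for its binding to the myotonic dystrophy kinase, had processed signals of 15069, 18154 and 20018 in WT and of 17005, 19717 and 20408 in KO. KO exceeded WT on each array, while the genotypes overlapped across arrays. Its ratios of 0.23, 0.16 and 0.19 varied least among the members, with a mean of 0.19 ± 0.03 (SD, n = 3) and a 95% interval of 0.04 to 0.35 (unadjusted p = 0.0226, adjusted p = 0.281 in limma). The mean was 0.11 from the processed signals, 0.085 with loess fitted on the tested probes and -0.34 when arrays were centred without loess. The unadjusted p rose above 0.05 under 8 of the 17 alternatives, among them no background subtraction, an offset of 16, trended and robust moderation and loess on the tested probes (adjusted p = 0.661 in limma for the last). Hspb3, which assembles with Hspb2 into a muscle-specific complex, was the dimmest member, with 660, 1337 and 1130 in WT and 799, 1399 and 1154 in KO. Its ratios of 0.01, -0.01 and 0.06 had a mean of 0.02 ± 0.04 (SD, n = 3) and a 95% interval of -0.13 to 0.18 (adjusted p = 0.925 in limma). In the processed signals KO exceeded WT on each array, with ratios of 0.28, 0.07 and 0.03, while the genotypes overlapped across arrays. The mean was 0.12 from these signals (adjusted p = 0.704 in limma) and -0.019 when arrays were centred without loess. The offset in the background correction pulls ratios of probes this dim towards 0, so the interval does not cover that effect.

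Hspb6, also called Hsp20, is phosphorylated by the cyclic nucleotide-dependent kinases and is abundant in all muscle types. Its processed signal was 42323, 57171 and 46320 in WT and 48209, 46538 and 49972 in KO. KO was above WT on arrays 1 and 3 and below it on array 2. The ratios were 0.38, -0.07 and 0.42, with a mean of 0.24 ± 0.27 (SD, n = 3) and a 95% interval of -0.02 to 0.50 (adjusted p = 0.397 in limma). Without array 2 the mean was 0.40 (unadjusted p = 0.00428, adjusted p = 0.306 in limma), and without array 3 it was 0.15. The mean was 0.00017 from the processed signals, -0.017 with loess fitted on the tested probes and -0.46 when arrays were centred without loess.

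Hspb1, named Hsp25 in the mouse, is an actin-binding chaperone phosphorylated by the kinase Mapkapk2. It read 6434, 8368 and 10656 in WT and 7520, 8250 and 12106 in KO. Its ratios were 0.08, -0.11 and 0.19, with a mean of 0.05 ± 0.15 (SD, n = 3) and a 95% interval of -0.14 to 0.24 (adjusted p = 0.827 in limma). Hspb8, the partner of Bag3 in the disposal of damaged filamin, read 5204, 6001 and 7378 in WT and 5792, 4748 and 8019 in KO. Its ratios were 0.03, -0.45 and 0.13, with a mean of -0.10 ± 0.31 (SD, n = 3) and a 95% interval of -0.38 to 0.19 (adjusted p = 0.783 in limma). Both genes were above WT in KO on arrays 1 and 3 and below it on array 2. For Hspb1, Hspb3, Hspb6 and Hspb8 the differences did not exceed the spread between arrays. Their intervals cover that spread under this normalisation only, and not dye preference or the choice of processing. When arrays were centred without loess, the means of Hspb1, Hspb6 and Hspb8 were -0.36, -0.46 and -0.44, each below its interval.

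The ratio of a probe varied with its brightness even after loess, and the members differ widely in brightness. Over all tested probes the median ratio was -0.05 at an average log2 intensity of 8 to 9 (964 probes), 0.14 at 10 to 11 (256 probes), 0.24 at 11 to 12 (112 probes), 0.33 at 12 to 13 (32 probes) and 0.74 at 13 to 14 (4 probes). Among tested probes within 0.5 log2 units of intensity of each member, the median was 0.24 around Hspb6, equal to the mean ratio of Hspb6 itself to 2 decimals. For the Cryab probe A_55_P1964408, whose average intensity mixes bright spots with a dim one, neighbours were taken on each array. On array 1 its ratio of 0.88 stood beside a median of 0.55 over 5 probes, which ranged from 0.24 to 0.75. On array 2 its 0.65 stood beside a median of 0.87 over 6 probes, which ranged from 0.70 to 1.41. Thus the probe lay above all its few neighbours on array 1 and below all of them on array 2, and on array 3 its 0.35 stood beside a median of -0.0073 over 2320 probes. At A_55_P2007656 the ratios of 0.44 and -0.11 stood beside medians of 0.26 over 59 probes on array 1 and 0.42 over 42 probes on array 2. The median was 0.09 around Hspb2, below that probe's 0.19, with an upper quartile of 0.21. Around Hspb7 it was 0.0075, with the middle 50% of neighbours between -0.11 and 0.12, beside -0.58 for Hspb7. Around Hspb1, Hspb3 and Hspb8 the medians were -0.0056, -0.02 and -0.04. The part of brightness in the positive ratios of Cryab, Hspb2 and Hspb6 was not tested.

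**Figure D4:**
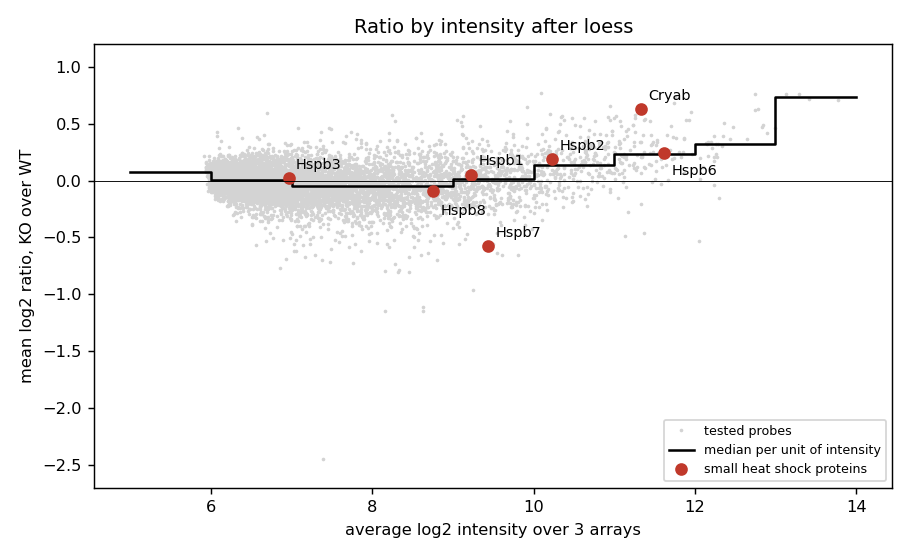
Mean log2 ratio of KO over WT (vertical axis) against average log2 intensity over 3 arrays (horizontal axis) for the 8391 tested probes in grey, with a step line at the median of each unit of intensity and the 7 tested members in red. The step line reaches 0.24 at 11 to 12, where Hspb6 lies on it, while Hspb7 lies at -0.58 where the line is at 0.01.

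The members' ratios varied by array. Of the 7 tested members 6 were positive on array 1, 2 on array 2 and 6 on array 3, with medians of 0.08, -0.07 and 0.19, beside -0.01, -0.02 and 0.02 for all tested probes. The lowest of the 3 ratios was that of array 2 for every tested member except Cryab, whose lowest came from the dim spot on array 3. Smooth muscle markers, which mark vessel walls, had medians of 0.07, -0.57 and 0.22 on the same arrays, over 4 probes of 4 genes tested of 5. Tagln had ratios of -0.15, -1.25 and 0.17, and Smtn had 0.05, -0.12 and -0.29. The summed processed signal of these 4 probes was 118800 to 287300 in WT and 133400 to 173200 in KO, with the highest WT sum on array 2. KO over WT of these sums was 1.12, 0.603 and 1.23 on arrays 1 to 3. Hspb1, Hspb6 and Cryab are known to be expressed in smooth muscle too. Myofibre markers had medians of 0.32, -0.01 and 0.29 over 8 probes of 7 genes, and their summed signal was 267900 to 376200 in WT and 301600 to 357300 in KO. KO over WT of the myofibre sums was 1.13, 0.894 and 0.95 on arrays 1 to 3. On array 3 the sum was thus lower in KO, while the median ratio after loess was positive. The part of these cell types in the members' ratios was not tested.

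The other marker lists gave no gene past the adjusted threshold either. Of the myofibre probes 4 of 8 were higher at an unadjusted p under 0.05, where 5.6% of all tested probes were, among them Myl3, a slow myosin light chain, with 0.49 ± 0.17, and 1 probe of Tnnt1, slow troponin T, with 0.40 ± 0.29, while its other probe had -0.19 ± 0.24 (SD, n = 3). The 4 higher probes were bright, with average log2 intensities from 10.30 to 12.84. Over all tested probes 75.8% were positive at 10 to 11, 92% at 11 to 12 and 90.6% at 12 to 13. Thus 5.6% is no measure for probes this bright, and the part of brightness in these ratios was not tested. The macrophage markers had negative mean ratios at 5 of 5 probes with a median of -0.25, and 2 of these were lower at an unadjusted p under 0.05, beside 8.02% of all tested probes. They were Cd74, the invariant chain of antigen presentation, with -0.40 ± 0.20, and C1qa, a complement subunit, with -0.23 ± 0.02 (SD, n = 3). By array the macrophage medians were -0.37, -0.32 and 0.02, so that the decrease was not seen on array 3. The red blood cell markers, of which 3 of 6 genes were tested, had positive mean ratios at 3 of 3 probes with a median of 0.21. Of these 2 were higher at that threshold. They were Hba-a1, an alpha globin, with 0.77 ± 0.34, and Alas2, the erythroid enzyme of haem synthesis, with 0.21 ± 0.13 (SD, n = 3). By array the medians were 0.38, 0.06 and 0.30. Hba-a1 had an average log2 intensity of 10.09, in the range where 75.8% of all tested probes were positive, and the part of brightness was not tested. Of the endothelial markers 1 of 4 was higher at that threshold, beside 5.6% of all tested probes. It was Cdh5, with 0.23 ± 0.06, while Pecam1 had -0.15 ± 0.13 (SD, n = 3). By mean ratio 2 endothelial probes were positive and 2 negative. The adipocyte markers had a median of 0.12, with none past that threshold. Medians were -0.05 for endothelium, -0.07 for Schwann cells and 0.01 for fibroblasts and tendon. The defining markers Tek, Lyz2, Lep and Pdgfra were well above background on no array.

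Genes that work with the small heat shock proteins were described from 5 lists of 50 gene symbols in all, of which 48 were on the array and 34 were tested at 42 probes. None passed the adjusted threshold in limma. At an unadjusted p under 0.05, 8 genes were lower and 2 were higher, and the median over the 42 probes was 0.0012, beside -0.0033 for all tested probes. By probe, 9 of 42 were lower and 2 higher, where 8.02% and 5.6% of all tested probes were.

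The chaperone-assisted autophagy partners, which clear damaged Z-disc proteins together with Hspb8 and Bag3, had 7 of 8 genes tested at 10 probes. Of these probes 3 were lower at an unadjusted p under 0.05 and none was higher. Hspa8, the constitutive Hsp70, had ratios of -0.34, -0.62 and -0.73 at 1 probe, with a mean of -0.56 ± 0.20 (SD, n = 3; adjusted p = 0.0940 in limma). Its other tested probe had a mean of -0.0062, and the average log2 intensities of the probes were 6.55 and 6.14. Sqstm1, the autophagy receptor p62, had -0.17, -0.30 and -0.99, and Synpo2, a Z-disc adaptor of Bag3, had -0.06, -0.62 and -0.39. Bag3 itself had a mean of 0.01 ± 0.14 (SD, n = 3). Flnc, the filamin that Hspb7 and Hspb8 act on, was on the array and was not tested.

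Among desmin, Z-disc and kinase partners 11 of 11 genes were tested at 14 probes, of which 2 were higher and 3 lower at an unadjusted p under 0.05. Ldb3, a Z-disc scaffold also called ZASP, had ratios of 0.59, 0.44 and 0.67 at 1 probe, with a mean of 0.57 ± 0.12 (SD, n = 3; adjusted p = 0.0824 in limma), and 0.21 ± 0.38 at its other probe. Des, the desmin filament that Cryab protects, had -0.10, -0.36 and -0.51, with a mean of -0.33 ± 0.21, at a probe of average log2 intensity 6.99. Ttn, titin, had means of -0.28 and -0.30 at 2 dim probes, of average log2 intensity 6.32 and 6.52. At 1 brighter probe, of 9.24, its mean was 0.18. The probes of Ldb3 and of Ttn thus gave unequal values within a gene.

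Heat shock factors and inducible chaperones, the usual readout of a heat shock response, had 9 of 16 genes tested at 11 probes. Hsf1, the main stress-activated factor, had -0.07, -0.26 and -0.19, with a mean of -0.17 ± 0.10 (SD, n = 3; unadjusted p = 0.0449, adjusted p = 0.356 in limma). It was the 1 lower probe, and none was higher. Chordc1, a partner of Hsp90, had a mean of 0.13 ± 0.20, and Serpinh1, the collagen chaperone, had 0.08 ± 0.05 (SD, n = 3). The list's median was 0.01, with a range of -0.17 to 0.13. The inducible Hspa1a, Hsp90aa1, Dnajb1 and Hspe1 were on the array and were not tested, as were Hsf2 and Hsf4.

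Kinases that phosphorylate small heat shock proteins had 6 of 10 genes tested at 6 probes, with a median of -0.23. At an unadjusted p under 0.05, 2 were lower and none was higher. Prkg1, the cGMP-dependent kinase that acts on Hspb6, had -0.27, -0.38 and -0.57, with a mean of -0.41 ± 0.16 (SD, n = 3; unadjusted p = 0.00186, adjusted p = 0.124 in limma). Prkaca, a catalytic subunit of the cAMP-dependent kinase, had -0.01, -0.51 and -0.36. Mapkapk2, the kinase of Hspb1, had 0.05, -0.61 and -0.31. The p38 kinases Mapk11, Mapk12, Mapk13 and Mapk14, which act upstream of Mapkapk2, were not tested. Of the 5 symbols listed as other small heat shock proteins 1 was tested, Hspb11, with a mean of 0.05 ± 0.05 (SD, n = 3).

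Likeness to other genes was measured as the root mean square difference of the ratios over the 3 arrays, across 6515 tested probes of named genes, and is a description over 3 values. Hspb7 was nearest to Rnu1b6, with ratios of -0.42, -0.84 and -0.49 and a difference of 0.139, and no named probe lay within 0.1 of it. Cryab, taken at A_55_P1964408, was nearest to Myl3, with ratios of 0.67, 0.48 and 0.32 and a difference of 0.158. Again none lay within 0.1. On array 3 this Cryab value came from the dim spot (6.99 in log2 units, beside 13.37 and 13.64 on arrays 1 and 2). The Myl3 probe was bright (12.84), and tested probes from 12 to 13 had a median ratio of 0.33. The other Cryab probe had 0.44 on array 1 and -0.11 on array 2. The part of brightness in this likeness was not tested. Hspb6 was nearest to Dnaja3 (0.065), with 7 probes within 0.1, and Hspb8 to Tmem63a (0.0277), with 43. Hspb2 was nearest to Fbxl14 (0.0208), with 258 probes within 0.1, Hspb1 to Ctla2b (0.0140), with 728, and Hspb3 to Snx16 (0.00502), with 1781.

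The order of the members was set against the other processing choices. Of the 17 alternatives 8 leave the mean of Hspb7 as reported by construction, since they change the filter, the test or other probes, and say nothing about the order. In each of the other 9 Hspb7 had the lowest ratio of the tested members, with means between -1.01 and -0.35. Its adjusted p-values ranged from 0.0124 to 1.00 over all 17 in limma. The mean of Cryab at A_55_P1964408 ranged from -0.032 to 0.76. Only with arrays centred and no loess did Hspb7 pass the adjusted threshold, together with Hspb1, Hspb2, Hspb6 and Hspb8, all lower, in a setting that called 3041 of 8391 tested probes.

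**Figure D5:**
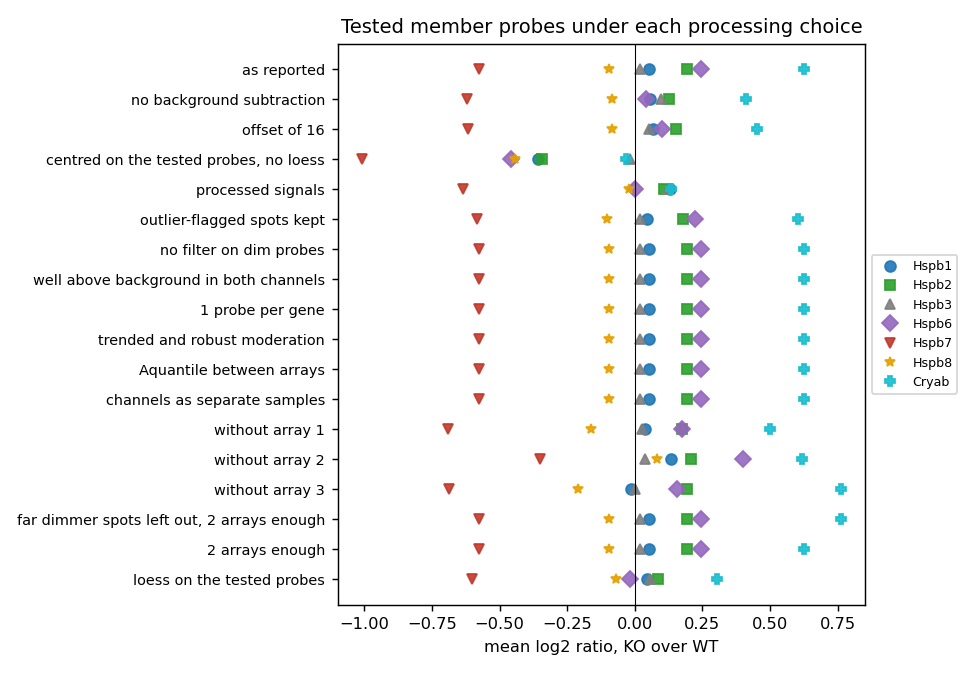
Mean log2 ratio of KO over WT (horizontal axis) of the 7 tested member probes as reported and under 17 other processing choices (vertical axis), with 1 symbol per gene. In the 9 choices that change its mean Hspb7 lies farthest left, between -1.01 and -0.35, and in 8 its mean stays as reported by construction, while Cryab moves from 0.63 as reported to 0.13 with the processed signals and -0.032 when arrays are centred without loess.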

How the data were processed

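Total RNA was labelled with Cy3 (WT) and Cy5 (KO), per the labels' protocols. The deposited scanner files hold each spot's intensity, background and outlier flags and processed signals. Per the file headers these came from Feature Extraction 12.0.3.1. The version in the submitters' processing notes is 11.5. The deposited value table holds a log10 ratio of KO over WT, equal to the scanner files' ratio within 5e-10 on arrays 1 and 2 and 0.005 on array 3, and its column medians were 0.

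From median intensity and background, log2 ratios were computed with normexp (offset 50) and loess within each array, control and flagged spots at weight 0, with limma 3.58.1 in R 4.3.3. This offset pulls ratios of dim probes towards 0, since median background was 35, 36 and 32 in WT and 17 in KO. Flagged spots were left out and the spots of a probe averaged. Tested probes had a value on every array and, in either channel, were well above background on each. The mean ratio was tested against 0 (two-sided) in limma with Benjamini-Hochberg adjustment over 8391 probes. Intervals are unadjusted. Each array pairs 1 KO with 1 WT sample. Accessions were matched to RefSeq (GRCm38.p6) for 28664 of 29472 probes.

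Named genes were all members, Mettl21c, up to 3 genes per partner list and up to 2 per marker list by smallest p, and the nearest gene to each member. Bag3, Flnc, Prkacb and genes named as untested were added outside this rule. Members and lists were chosen with earlier results of these data known. The steps were tested on simulated arrays.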

Additional observations from a re-analysis of the deposited data

How the results depend on the processing

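The 17 alternatives, 3 of them chosen after seeing the data (loess on the tested probes, values on 2 arrays, far dimmer spots left out), changed the correction, normalisation, filters, moderation and arrays. With arrays centred and no loess, 5 member probes were called (0 higher, 5 lower), the members' median was -0.36, and 24 partner genes had an unadjusted p under 0.05 in place of 10, of 34 tested. As reported 1143 of all 8391 tested probes had such a p, and in this setting 4223 did. The means were then -1.01 for Hspb7, -0.44 for Hspb8, -0.34 for Hspb2, -0.032 for Cryab, -0.019 for Hspb3, -0.36 for Hspb1 and -0.46 for Hspb6. Trended and robust moderation called 1 member probe, Cryab, among 80 in all, against 1 in all as reported, and an offset of 16 called 21 in all and no member. Without a filter on dim probes the partner count was 18 of 46 genes tested, where 3494 of all 54859 probes had such a p. Leaving out 1 array gave partner counts from 6 (without array 2, where 712 of 8723 probes had such a p) to 13 (without array 1, where 1080 of 8656 did). Member medians with 1 array left out were 0.039 to 0.13, with no member called. In these settings Hspb8 ranged from -0.21 to 0.083, Hspb3 from -0.00025 to 0.037 and Hspb1 from -0.014 to 0.13, so that each changed sign (Hspb8 without array 2, the others without array 3), and Hspb6 ranged from 0.15 (without array 3) to 0.40 (without array 2). With loess on the tested probes Hspb6 had -0.017. Without the pairing of the 2 channels of an array (no replicate block), no member was called and the adjusted p of Hspb7 was 1.00. Aquantile leaves the ratios unchanged by construction, and so do the filters on dim probes, the moderation and the pairing. At an unadjusted p under 0.05, Hspb2 kept its call in 8 of 17 alternatives and Cryab in 14. The causes of these changes were not tested. Dim probes, where the signal is near background, limit the partner lists more than the members.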
